A study of Mus musculus with 6 samples.

Results

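The genes described here are those of the MHC class II pathway: the chains H2-Aa, H2-Ab1 and H2-Eb1, the invariant chain Cd74, the peptide editors H2-DMa, H2-DMb1 and H2-DMb2, their inhibitors H2-Oa and H2-Ob, and the transactivator Ciita. They were chosen by symbol, and all 10 were found among the 20938 genes of the table. RNA was sequenced from tumours that B16F10 cells, a melanoma line of C57BL/6 mice, formed under the skin of male C57BL/6 mice aged 6 weeks, and that were taken on day 19. The labels give 3 tumours as Control and 3 as YKL-40 Overexpressing, here called YKL-40-labelled; all 6 carry the genotype label WT. YKL-40 is a secreted chitinase-like protein. The labels state neither the vector of the control cells nor the species of the overexpressed sequence, and they do not say that the tumours of a group came from separate mice. The p-values therefore measure only the spread between these samples.

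Class II molecules are surface proteins of an alpha and a beta chain that show peptides from endocytosed protein to CD4 T cells. The invariant chain fills the peptide groove of new molecules, H2-DM swaps its remnant for other peptides in the endosome, and H2-O holds H2-DM back. Dendritic cells, macrophages and B cells make class II constitutively or on activation, and other cells can make it after interferon gamma. In both cases Ciita, which does not bind DNA itself, is recruited to an X box and a Y box in front of the genes, held by the RFX complex, CREB and NF-Y.

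The values are FPKM, fragments scaled to gene length and library depth, so levels of different genes can be set against each other. A change is the YKL-40-labelled mean less the control mean of log2(FPKM + 1), a scale that understates the change of low genes. Adjusted p-values are from limma over the 11241 genes that average 1 FPKM or more. Read numbers are unknown. Steps among genes below 0.3 FPKM gave depths of 0.947 to 1.33 relative to the first control. Mouse Chil1, the gene of YKL-40, ran from 0 to 0.0644 FPKM in the controls and was at 0 in all 3 YKL-40-labelled libraries, so the groups below rest on the labels alone. The 8 melanoma markers summed to 8662 to 10132 FPKM in the controls, against 8664 to 10804 in the YKL-40-labelled libraries (0 passed in limma, 1 at an unadjusted p under 0.05, median change -0.02), with changes of 0.38 for Pmel and -0.27 for Dct.

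Because the members were all high in the same libraries, their promoters were searched for X and Y boxes, and the stretches with matches are shown. The RefSeq table (GRCm38.p6, the assembly of mm10) held 8 starts of 7 members: H2-Aa, H2-Eb1, H2-DMa, H2-DMb1, H2-DMb2, H2-Oa and H2-Ob. Ciita, Cd74 and H2-Ab1 were not matched. Each window ran from 250 bases before to 50 after the start and was searched on both strands for CCNAGNNAC, the X box core, and ATTGG, the Y box. The core followed by ATTGG on the same strand, with 10 to 35 bases between, was found in H2-DMb1, H2-Oa and H2-Ob, and in 0.463% of all 32851 promoters. A shorter core, GNAAC, which lies inside many matches of the longer one and was chosen after the sequences were read, was followed by ATTGG in H2-Aa and H2-Eb1 too, against 4.19% of all promoters. In these 5 promoters ATTGG began between 61 and 43 bases before the start, and 25 to 28 bases separated it from the core. The first 3 stretches below are 80 bases each, 5′ to 3′ on the strand of the gene, with the core and ATTGG in capitals. They lie at chr17:34287854-34287933 on the minus strand for H2-Aa, at chr17:34305746-34305825 on the plus strand for H2-Eb1 and at chr17:34238786-34238865 on the plus strand for H2-Ob.
H2-Aa: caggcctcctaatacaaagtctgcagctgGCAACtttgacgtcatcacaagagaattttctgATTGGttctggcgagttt
H2-Eb1: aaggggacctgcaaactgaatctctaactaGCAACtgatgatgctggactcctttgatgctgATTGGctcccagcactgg
H2-Ob: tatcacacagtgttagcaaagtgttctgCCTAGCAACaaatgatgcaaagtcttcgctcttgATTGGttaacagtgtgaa

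The neighbouring copies H2-DMb1 and H2-DMb2 differ in this motif, and 30 bases around it are shown for both. They lie at chr17:34153088-34153117 and chr17:34145117-34145146, both on the plus strand, and capitals mark the core.
H2-DMb1: gtttaCCTAGTAACtgatgatgctaggctg
H2-DMb2: gtttacctattaaccgatgatgctaggcta
Counted from 1 at the first base of this stretch, going from H2-DMb1 to H2-DMb2, the substitutions are G10T, T15C and G30A. G10T falls in the core, so neither the long nor the short core was found at this place in H2-DMb2, while ATTGG stood 90 bases before the start used. That start, at 34145249, lies inside H2-DMb2, which begins at 34143229. For H2-DMb1 the start used, at 34153191, is where the gene begins. The 2 RefSeq starts of H2-DMa, at 34122832 and 34125518, also lie inside the gene, which begins at 34119693. These starts had no ordered pair. One of them had ATTGG 198 bases before the start, and neither held the long core. These matches describe letters in a window and say nothing of binding.

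**Figure D1:**
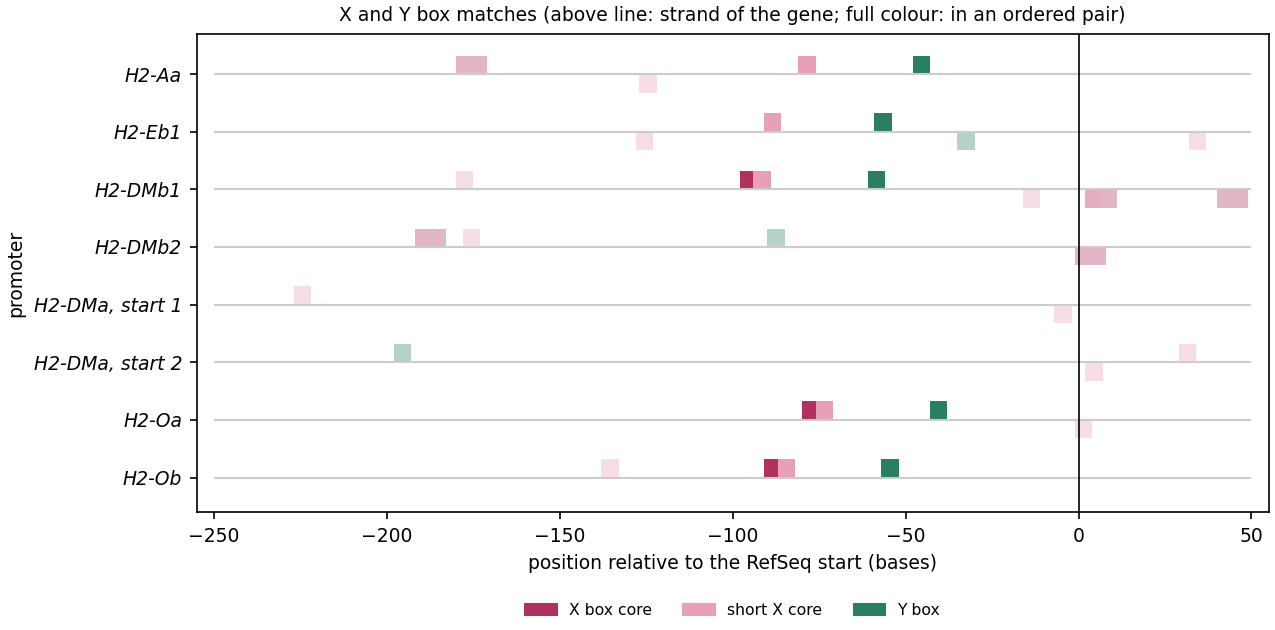
X and Y box matches in the 8 RefSeq promoter windows of 7 members. The horizontal axis is the position in bases relative to the start, blocks above a line lie on the strand of the gene and blocks below it on the other, and full colour marks matches in an ordered pair, which 5 of the 7 genes have at similar distances before the start.

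For each of the 10 members the lowest YKL-40-labelled value exceeded the highest control value. Of the 8 members that average 1 FPKM or more, 5 rose in limma over all genes, namely Cd74, H2-Aa, H2-Ab1, H2-Eb1 and H2-DMa, where 0.365% of all tested genes were called higher. The 8 also passed at an unadjusted p under 0.05, against 8.71% of all tested genes higher. For each of the 8 every YKL-40-labelled library lay above every control, against 10.3% of all tested genes. The median change was 3.13, beside -0.04 over all tested genes. In whole tumours, more cells of a type and more RNA per cell cannot be told apart. Ciita and H2-DMb2 reached the filter only through the YKL-40-labelled libraries, so their passing it is tied to their difference. Within the groups the libraries kept a common order for most members: YKL-40-labelled library 2 was the lowest of its group for all 10, library 3 the highest for 9 (not H2-Ob), and control 3 the highest control for 8 (not H2-DMb1 or H2-Oa).

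**Figure D2:**
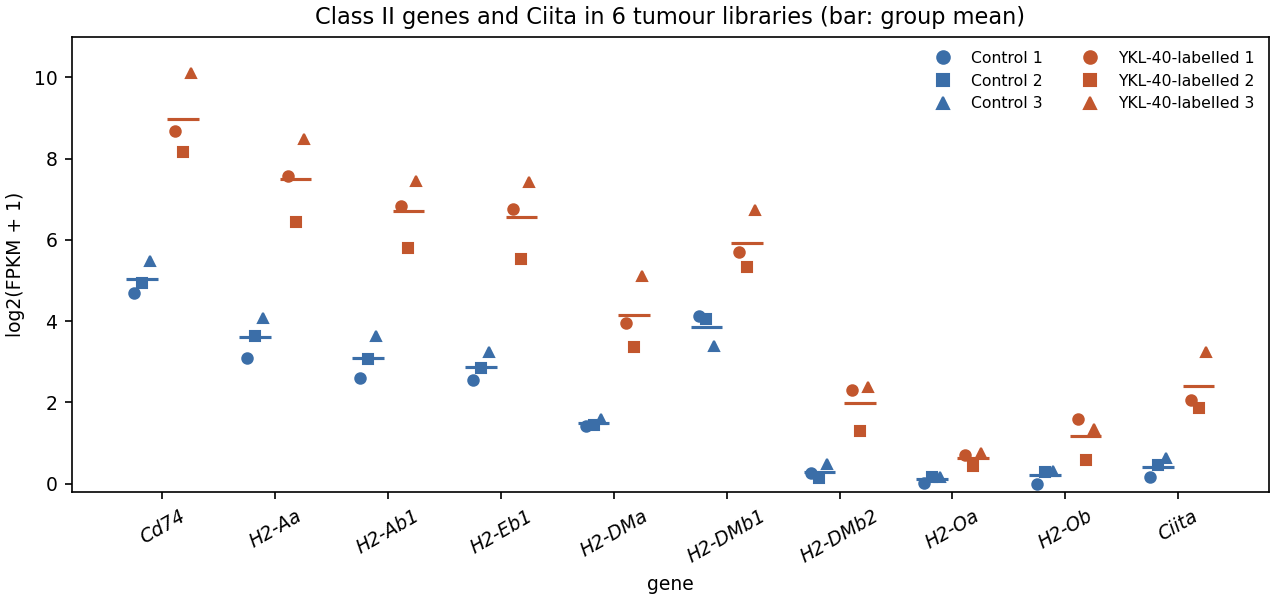
Level of each member in the 6 libraries on the log2(FPKM + 1) scale. Each point is 1 library (circle, square and triangle for replicates 1, 2 and 3), bars are group means, and for each of the 10 genes the 3 YKL-40-labelled points lie above the 3 controls, with H2-DMb1 the gene whose control 3 is lowest.

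Ciita (chromosome 16, 10480014 to 10531064) was nearly silent in the controls, at 0.120, 0.366 and 0.546 FPKM. The YKL-40-labelled libraries had 3.20, 2.65 and 8.47 FPKM, a 13.9-fold higher mean. Its change was 1.98 (SE 0.35), and with an adjusted p of 0.0737 it did not pass over all genes. Of 15 other settings of the limma fit, 12 left it uncalled. It passed with array quality weights (adjusted p = 0.0115), where 5.92% of all tested genes were called higher. It passed without YKL-40-labelled library 2 (adjusted p = 0.0385, 1.76% called higher), and blocking by replicate gave 0.0423 (0.979%). Its adjusted p was 0.196 without control 1, 0.206 without control 2 and 0.895 with a skeletal muscle covariate. Those 3 fits called 2, 0 and 0 of all tested genes. Its exons share 329 bases with those of Dexi on the other strand, which a kit without strand information does not separate. Dexi itself had 3.50 ± 0.124 and 4.402 ± 0.321 FPKM (SD, n = 3 each) and was not called (adjusted p = 0.255).

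The chains that form the peptide groove rose together. H2-Aa (chromosome 17, 34282744 to 34287823), the alpha chain of the I-A molecule, had 7.60, 11.4 and 16.03 FPKM in the controls, against 190, 85.6 and 358 in the YKL-40-labelled libraries. That was a change of 3.89 (SE 0.49, adjusted p = 0.0381). H2-Ab1 (chromosome 17, 34263227 to 34269418), the I-A beta chain, had 5.02, 7.41 and 11.4 FPKM against 114, 54.8 and 175. It rose by 3.60 (SE 0.43, adjusted p = 0.0303). The lowest YKL-40-labelled library was thus well above the highest control for both.

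The beta chain of the I-E molecule, H2-Eb1 (chromosome 17, 34305867 to 34316674), had 4.83, 6.15 and 8.39 FPKM in the controls, against 107, 45.5 and 171 in the YKL-40-labelled libraries. Its change was 3.70 (SE 0.44, adjusted p = 0.0303). C57BL/6 mice do not make the I-E alpha chain, and its remnant, H2-Ea-ps, was listed at 0 in all 6 libraries. H2-Eb2, a relative of H2-Eb1 outside the 10 members, was at 0, 0 and 0.0393 FPKM in the controls, against 2.38, 0.868 and 7.22 in the YKL-40-labelled libraries. It reached the filter only through the YKL-40-labelled libraries and did not pass (change 1.88, adjusted p = 0.119).

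Cd74 (chromosome 18, 60803849 to 60812652), the invariant chain, was the most abundant member in all 6 libraries. It had 24.9, 29.9 and 43.3 FPKM in the controls, against 406, 284 and 1101 in the YKL-40-labelled libraries, 18.2-fold higher in the mean (change 3.94, SE 0.47, adjusted p = 0.0303). Among all genes of the table, ordered from the highest value, it stood at places 3628, 3048 and 2130 in the controls and at places 163, 237 and 27 in the YKL-40-labelled libraries. In all 3 YKL-40-labelled libraries it thus stood far closer to the top of the table than in any control.

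Of the 3 peptide editors, H2-DMa passed over all genes. H2-DMa (chromosome 17, 34119693 to 34139101), the alpha chain of H2-DM, had 1.66, 1.73 and 2.01 FPKM in the controls, against 14.6, 9.33 and 33.4 in the YKL-40-labelled libraries. It rose by 2.66 (SE 0.39, adjusted p = 0.0484), a call lost with median of ratios scaling (0.0531) and without a variance trend (0.0547). Its exons share 360 bases with Brd2 on the other strand, which had 42.9 ± 2.49 and 42.4 ± 4.82 FPKM (SD, n = 3 each).

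H2-DMb1 (chromosome 17, 34153191 to 34160229), the main beta chain gene, was present at 16.5, 15.6 and 9.43 FPKM in the controls, more than any other member but Cd74 in controls 1 and 2. The YKL-40-labelled libraries had 51.2, 39.3 and 106 FPKM. The ratio of the group means was 4.72, the lowest of the 10 members, and the change of 2.07 (SE 0.36) did not pass (adjusted p = 0.0737). Control 3, where 8 other members were highest among the controls, was here the lowest.

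H2-DMb2 (chromosome 17, 34143229 to 34151553), the second beta chain gene, was at 0.194, 0.101 and 0.399 FPKM in the controls. It had 3.98, 1.46 and 4.18 FPKM in the YKL-40-labelled libraries, 13.8-fold higher in the mean (change 1.70, SE 0.29, adjusted p = 0.0712, not passed). Of the stretches of 50 bases in annotated H2-DMb1 transcripts (GENCODE M21), 22.7% also occur in H2-DMb2. Of those in H2-DMb2, 24.8% occur in at least 1 of 165 other genes, and 21.2% in H2-DMb1. The sources used here do not state how such reads were divided, so the split between both genes is uncertain. For the other members, at most 0.488% of such stretches occur in any other gene.

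The inhibitor genes stayed low. H2-Oa (chromosome 17, 34092379 to 34095234) had 0.0168, 0.129 and 0.128 FPKM in the controls, against 0.625, 0.361 and 0.700 in the YKL-40-labelled libraries. H2-Ob (chromosome 17, 34238905 to 34245908) was listed at 0, 0.228 and 0.242 FPKM and had 2.03, 0.486 and 1.55 in the YKL-40-labelled libraries. Both lay below the filter. Each gave an exact two-sided permutation p of 0.1, the smallest that 3 against 3 libraries allow, and in a limma fit without a filter neither passed (adjusted p = 0.138 for H2-Oa and 0.187 for H2-Ob). H2-Oa shares 321 exon bases with the antisense gene BC051537.

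In order of the mean, the YKL-40-labelled libraries held Cd74 at 597 ± 440, H2-Aa at 211 ± 137, H2-Ab1 at 115 ± 60.1, H2-Eb1 at 108 ± 62.6 and H2-DMb1 at 65.4 ± 35.3 FPKM (SD, n = 3 for each). Below them came H2-DMa at 19.1 ± 12.7, Ciita at 4.77 ± 3.22, H2-DMb2 at 3.21 ± 1.52, H2-Ob at 1.36 ± 0.790 and H2-Oa at 0.562 ± 0.178 FPKM. Neighbours among the first 5 differed by less than the larger of both SDs, and so did Ciita and H2-DMb2, while the other neighbours differed by more. These SDs are between libraries, in which the members rose and fell together. Within each YKL-40-labelled library the first 5 kept this order, whereas H2-DMb2 lay above Ciita in YKL-40-labelled library 1. In the controls the order was Cd74, H2-DMb1, H2-Aa, H2-Ab1, H2-Eb1, H2-DMa, Ciita, H2-DMb2, H2-Ob and H2-Oa. There Cd74 (32.7 ± 9.503) lay above H2-DMb1 (13.9 ± 3.86), H2-Eb1 (6.46 ± 1.80) above H2-DMa (1.80 ± 0.185) and H2-DMa above Ciita (0.344 ± 0.214) by more than the larger SD, and the other neighbours differed by less. Within each control H2-Aa lay above H2-Ab1 and H2-Ab1 above H2-Eb1, whereas H2-DMb1 lay below H2-Aa in control 3.

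Ratios within a library set the members against each other. The 3 chains summed to 17.5, 24.96 and 35.8 FPKM in the controls, against 411, 186 and 703 in the YKL-40-labelled libraries. For each FPKM of Ciita there were 146, 68.2 and 65.6 FPKM of chains in the controls, against 128, 70.2 and 83.0 in the YKL-40-labelled libraries, so the groups overlapped. The log2 ratio differed by 0.07 (exact two-sided permutation p = 0.8, over 3 against 3 libraries). Without 1 library the difference ran from -0.18 to 0.44. With a pseudocount of 0.1 FPKM it was 0.50 (exact permutation p = 0.2), as the Ciita values of the controls are low.

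Cd74 over the chains was 1.43, 1.20 and 1.21 in the controls, against 0.989, 1.53 and 1.56 in the YKL-40-labelled libraries, which also overlapped (difference 0.06, exact permutation p = 0.8). H2-Aa over H2-Ab1, a ratio chosen after the values were seen, was 1.51, 1.54 and 1.40 against 1.67, 1.56 and 2.04, without overlap but with a small difference (0.23, exact permutation p = 0.1, the smallest possible). H2-Eb1 over H2-Ab1, chosen likewise, was 0.962, 0.830 and 0.735 against 0.935, 0.830 and 0.976 and overlapped (difference 0.12, exact permutation p = 0.4).

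The proportion of summed H2-DM, most of it H2-DMb1 in every library, to the chains was lower in each YKL-40-labelled library than in the controls. The summed H2-DM genes over the chains were 1.05, 0.700 and 0.330 in the controls, against 0.170, 0.269 and 0.203 in the YKL-40-labelled libraries, without overlap. The log2 ratio differed by -1.57 (exact permutation p = 0.1, the smallest possible), and by -0.82 with geometric means, in which the abundant H2-DMb1 weighs less. H2-DMb1 over H2-DMa, chosen after the values were seen, was 9.94, 9.07 and 4.70 in the controls, against 3.52, 4.21 and 3.16 in the YKL-40-labelled libraries (difference -1.06, exact permutation p = 0.1). The uncertain split of reads between H2-DMb1 and H2-DMb2 bears on this ratio. H2-O over H2-DM was 0.000917, 0.0204 and 0.0313 against 0.0381, 0.0169 and 0.0157, which overlapped (difference 1.37, exact permutation p = 0.7, and -0.23 without control 1, where H2-Ob was at 0).

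**Figure D3:**
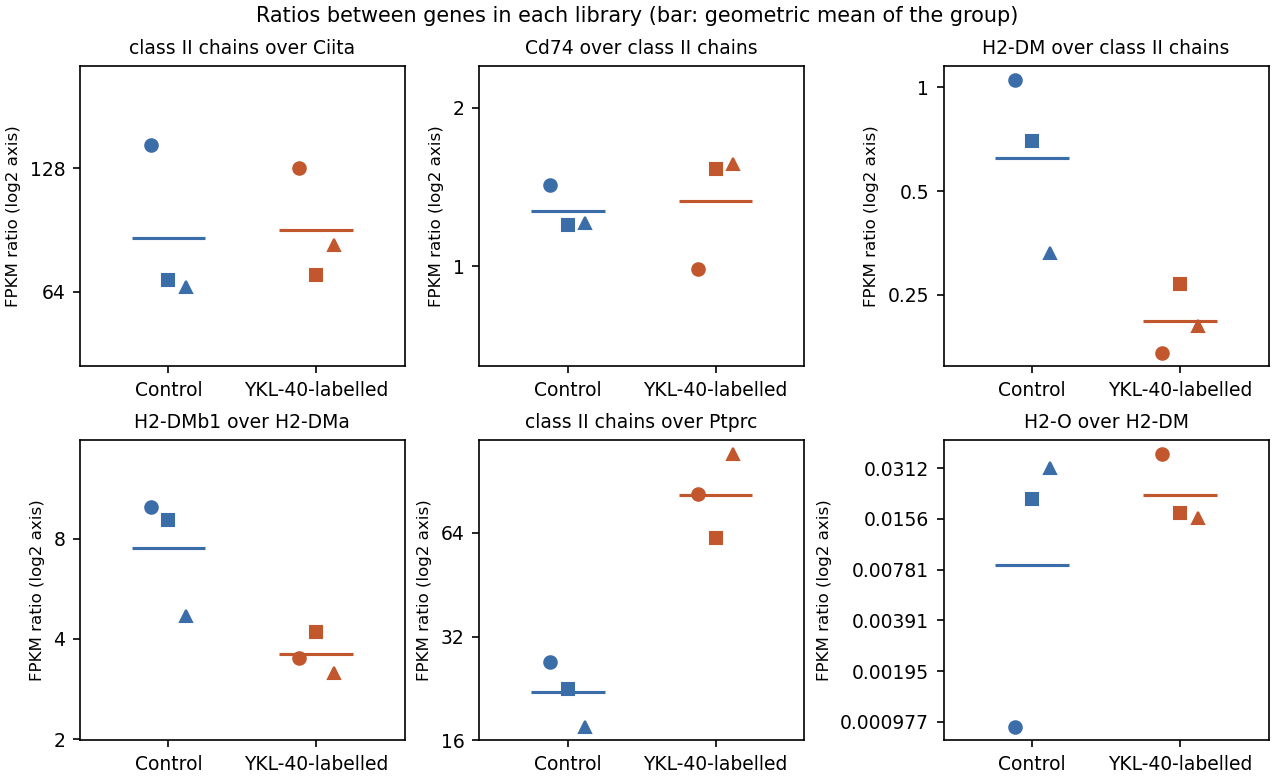
Ratios of FPKM values in each library, on log2 axes, by group. Circle, square and triangle are replicates 1, 2 and 3 and bars are geometric means: chains over Ciita, Cd74 over chains and H2-O over H2-DM overlap between the groups, whereas H2-DM over chains, H2-DMb1 over H2-DMa and chains over Ptprc do not.

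Of the genes that act with or before Ciita, Irf1 alone passed in limma. Of 19 genes of the X and Y box complex and of the route to Ciita, 18 could be tested. In limma 1 rose over all genes and 0 fell, with a median change of 0.19. At an unadjusted p under 0.05 in limma 6 were higher and 1 lower. Among all 11241 tested genes 8.71% were higher and 1039 lower at that p. Rfx5, the DNA-binding part of the RFX complex, had 3.78, 2.58 and 2.58 FPKM in the controls, against 3.25, 3.45 and 3.87 in the YKL-40-labelled libraries, which overlapped (change 0.20, 95% interval -0.16 to 0.55). Rfxap and Rfxank, the other RFX subunits, had changes of -0.10 and -0.20, and Creb1 had -0.09. Nfya, a subunit of NF-Y, had 35.3, 35.02 and 34.2 against 24.3, 28.9 and 26.5 FPKM (change -0.38, adjusted p = 0.113), all lower but not passed. The other NF-Y subunits did not share this course. Nfyb overlapped (change -0.11). Nfyc had 38.6, 41.7 and 42.2 against 43.3, 46.2 and 50.9 FPKM (change 0.19, adjusted p = 0.351), all higher but not passed.

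Irf1 is a transcription factor of the interferon response that acts on a Ciita promoter. It rose, with 9.01, 11.7 and 10.2 FPKM in the controls, against 40.5, 30.3 and 73.5 in the YKL-40-labelled libraries (change 2.03, SE 0.29, adjusted p = 0.0472). Socs1, a feedback inhibitor of interferon signalling, had 0.316, 0.415 and 0.588 against 3.46, 1.44 and 3.77 FPKM (change 1.38, adjusted p = 0.0780) and reached the filter only through the YKL-40-labelled libraries. Nlrc5, the relative of Ciita that serves MHC class I, had 9.49, 6.83 and 4.90 against 15.4, 20.2 and 34.97 FPKM (change 1.56, adjusted p = 0.0845). It was already above Ciita in every control. Ifng, below the filter, was at 0, 0.0215 and 0 FPKM in the controls, against 0.250, 0.235 and 0.695 in the YKL-40-labelled libraries.

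**Figure D4:**
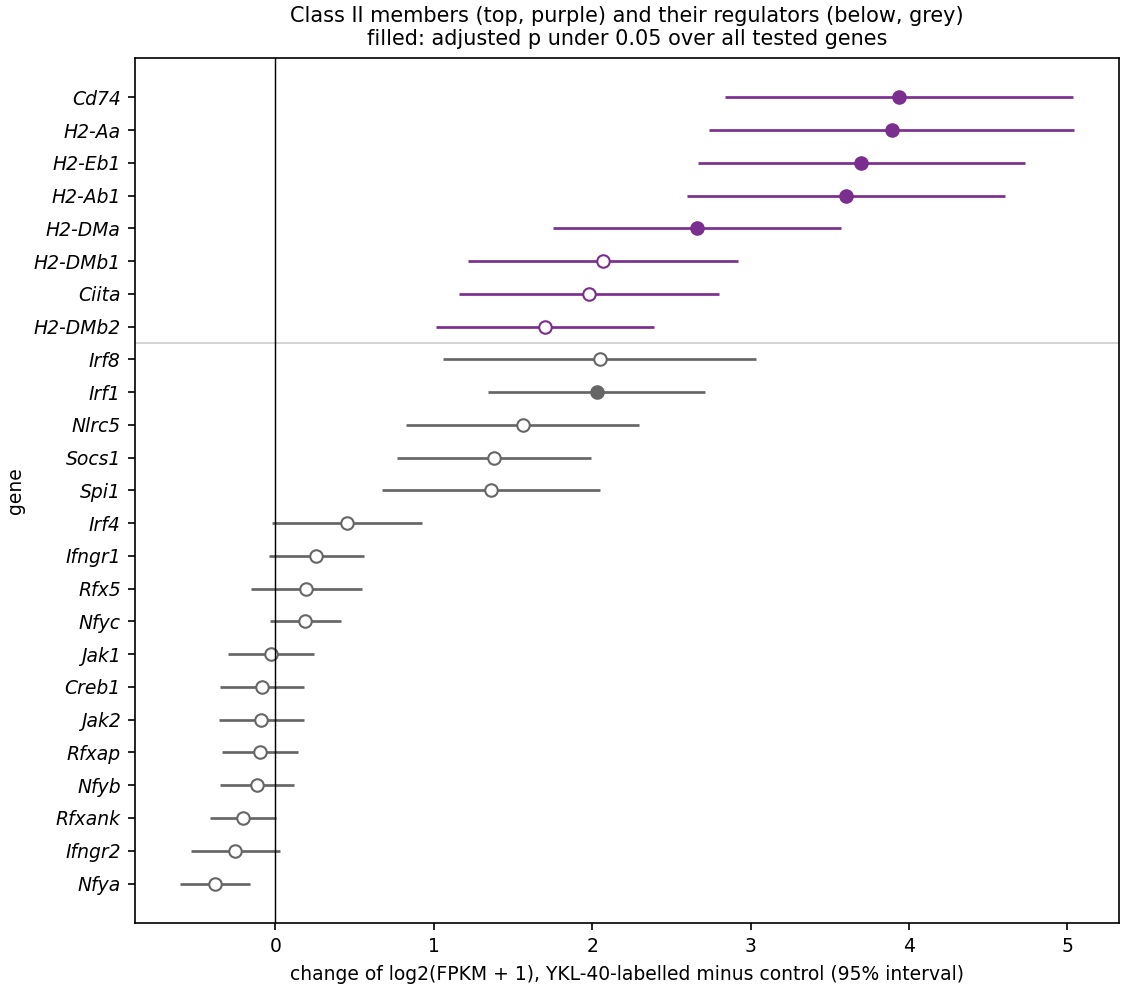
Change of log2(FPKM + 1), YKL-40-labelled minus control, with its 95% interval for the 8 tested members (purple) and 17 of the 18 tested regulators (grey). Filled points passed over all tested genes, which 5 members and Irf1 did, while the RFX genes and Creb1 have intervals near or across 0, from -0.41 for the lower bound of Rfxank to 0.55 for the upper bound of Rfx5.

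Proteases and other handlers of class II form the next list. Of 11 genes 10 could be tested and 0 passed in limma (5 higher at an unadjusted p under 0.05, against 8.71% of all tested genes), with a median change of 0.35. March1, a ubiquitin ligase that removes class II from the surface, had a change of 1.00 (adjusted p = 0.0884) and reached the filter only through the YKL-40-labelled libraries. Ctss, the protease that trims the invariant chain, had 15.1, 24.9 and 39.6 FPKM in the controls, against 73.9, 55.8 and 107 in the YKL-40-labelled libraries (change 1.59, adjusted p = 0.0918). Ctsb, another lysosomal protease, had a change of 0.64 (adjusted p = 0.130).

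Of 8 costimulatory genes and genes of the T cell side, 3 could be tested and 0 passed in limma, with a median change of 0.83. At an unadjusted p under 0.05 in limma 3 were higher, against 8.71% of all tested genes. Cd80 and Cd40 reached the filter only through the YKL-40-labelled libraries, so this count and median are tied to the difference. Changes were 0.83 for Cd80, 1.11 for Cd40 and 0.36 for Icosl. Cd4, whose product binds class II, had 0.177, 0.315 and 0.351 against 1.19, 0.728 and 1.57 FPKM. Lag3, an inhibitory receptor for class II, had 0.216, 0.273 and 0.295 against 1.16, 0.476 and 1.86 FPKM. Both lay below the filter and did not overlap between the groups.

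Markers of leukocytes had higher group means in the YKL-40-labelled libraries as well, none past the test over all genes. Ptprc, carried by all nucleated blood cells, had 0.645, 1.11 and 2.05 FPKM in the controls, against 4.94, 3.00 and 6.46 in the YKL-40-labelled libraries (change 1.36, adjusted p = 0.0881). The 4 leukocyte markers, led by Laptm5 (change 1.99) and Coro1a (1.81), had a median change of 1.58. Of these 0 passed in limma (4 higher at an unadjusted p under 0.05, against 8.71% of all tested genes). Ptprc was highest in control 3 and lowest in YKL-40-labelled library 2 within the groups, as most members were. Chains per FPKM of Ptprc were 27.1, 22.6 and 17.5 in the controls, against 83.2, 62.01 and 109 in the YKL-40-labelled libraries, without overlap (log2 difference 1.90, exact permutation p = 0.1, the smallest possible). The difference was 1.71 to 2.11 without 1 library. Ciita over Ptprc, chosen after the values were seen, differed by 1.84 in the same way, whereas H2-DMb1 over Ptprc was 25.6, 14.1 and 4.61 against 10.4, 13.1 and 16.3 and overlapped.

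**Figure D5:**
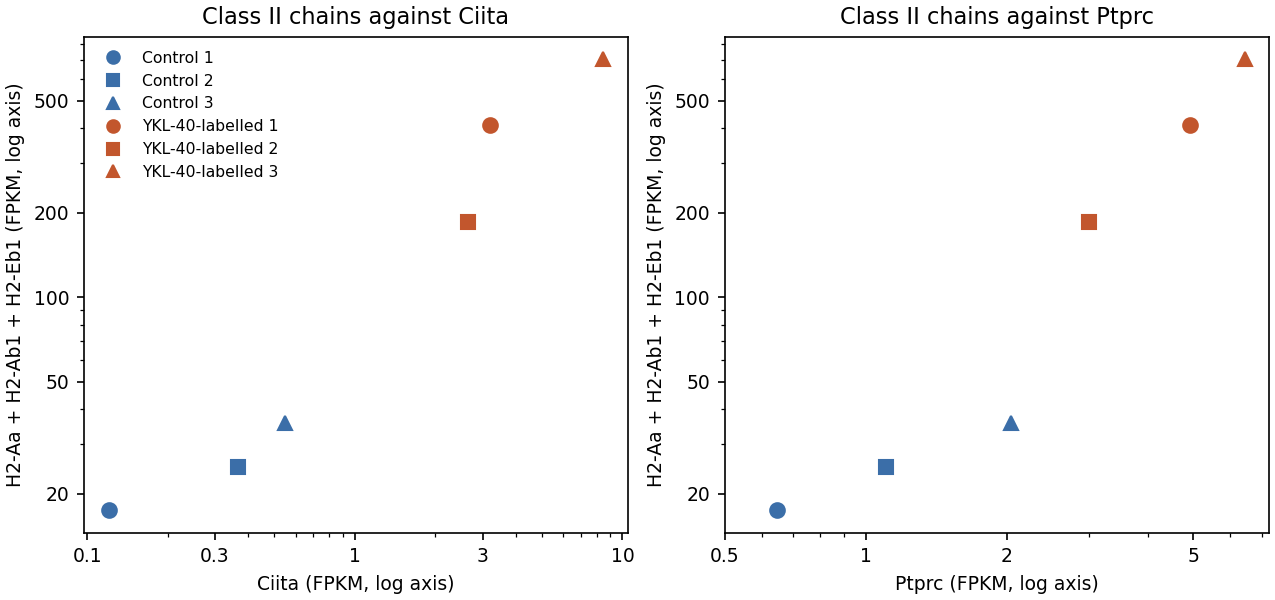
Sum of H2-Aa, H2-Ab1 and H2-Eb1 against Ciita (left) and against Ptprc (right), in FPKM on log axes, 1 point per library. The chains stay between 65.6 and 146 times Ciita in all 6 libraries, while they are 17.5 to 27.1 times Ptprc in the controls and 62.01 to 109 times in the YKL-40-labelled libraries.

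Among cells that carry class II, 3 of 10 dendritic cell markers could be tested and 0 passed in limma (2 higher at an unadjusted p under 0.05, against 8.71% of all tested genes). The list summed to 3.27 to 6.44 FPKM in the controls, against 10.1 to 23.2 in the YKL-40-labelled libraries. For 8 of its 10 genes, most of them below the filter, every YKL-40-labelled library lay above every control. The same held for 10.3% of all tested genes, a share that leaves out genes below the filter. Zbtb46, a transcription factor of dendritic cells, had 1.86, 1.09 and 1.75 against 1.48, 1.57 and 1.597 FPKM, which overlapped. Ccr7, the homing receptor of migrating dendritic cells, had 0.260, 0.587 and 1.17 against 8.15, 2.72 and 3.59 FPKM (change 1.72, adjusted p = 0.0845) and reached the filter only through the YKL-40-labelled libraries. Itgax, the CD11c integrin, had a change of 0.97. Flt3, a receptor of dendritic cells that was picked after its values were seen, had 0, 0.0291 and 0.0766 against 1.13, 0.362 and 0.860 FPKM. All 10 macrophage markers were tested and 0 passed in limma (7 higher at an unadjusted p under 0.05, against 8.71% of all tested genes). Their sums were 92.1 to 294 FPKM in the controls and 325 to 473 in the YKL-40-labelled libraries. C1qa, a complement component made by macrophages, had a change of 1.80 (adjusted p = 0.0765), and C1qc one of 1.49. Of the 7 B cell markers, 0 reached the filter. Their sums were 1.03 to 2.05 and 1.44 to 1.71 FPKM. The chains over the summed macrophage markers, chosen after the values were seen, were 0.190, 0.154 and 0.122 against 1.26, 0.476 and 1.49. Over the summed dendritic cell markers they were 4.18, 7.63 and 5.57 against 17.7, 18.4 and 41.2, and neither ratio overlapped. With geometric means in place of sums, the log2 difference of the latter ratio fell from 2.08 to 1.25. The part of these cell types in the class II values was not tested.

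Markers of cells that mostly lack class II were set beside these. Fibroblast markers summed to 30.4 to 243 FPKM in the controls, against 221 to 404 in the YKL-40-labelled libraries, and T cell markers to 1.87 to 5.73 and 9.38 to 23.5. Of 7 fibroblast and 3 testable T cell genes 0 passed in limma, with median changes of 1.81 and 1.26. At an unadjusted p under 0.05 in limma 6 and 3 were higher, against 8.71% of all tested genes. Of the T cell genes, Cd8a and Cd5 reached the filter only through the YKL-40-labelled libraries, so their count and median are tied to the difference. Those of lowest p were Lum (1.61) and Pdgfra (1.43), and Cd8a (1.79) and Cd5 (1.26). Endothelial markers overlapped at 40.2 to 85.3 and 48.4 to 77.0 FPKM (6 tested, 0 passed in limma, 1 at an unadjusted p under 0.05), with changes of 0.69 for Tek and 0.18 for Kdr. The keratinocyte genes Krt14 and Krt1 were at 0 in all 6 libraries, and the list did not reach the filter. Skeletal muscle markers went the other way, at 34.5 to 146 against 4.27 to 23.2 FPKM. Of the 7 testable muscle genes, 0 passed in limma (6 lower at an unadjusted p under 0.05, against 1039 of all 11241 tested genes). The changes were -3.27 for Tnnt3 and -2.35 for Mylpf. With the mean muscle level as a covariate, 0 of 8 class II members passed in limma (6 at an unadjusted p under 0.05), against 2.51% of all tested genes higher at that p. The changes ran from 0.98 for H2-DMb1 and 1.48 for Ciita, which no longer passed at an unadjusted p under 0.05, to 3.39 for Cd74, all with an adjusted p of 0.895. The fit with the covariate called 0 of all 11241 tested genes. The summed muscle markers did not overlap between the groups, so this fit cannot separate the muscle level from the labels. The part of muscle in the class II values was not tested.

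The 5 calls depended on single libraries. In limma 0 of 8 members passed when control 1, control 2 or YKL-40-labelled library 1 was left out, where all 8 kept an unadjusted p under 0.05, against 6.86%, 6.33% and 7.61% of all tested genes higher at that p. Those fits called only 2, 0 and 4 genes over all tested genes, so the loss was not particular to the members. Without YKL-40-labelled library 2 all 8 passed, and 1.76% of all tested genes were called higher. Without a filter on low values 0 of 10 passed, with 10 at an unadjusted p under 0.05, against 8.98% of all genes in that fit. That fit called 1 gene over all genes.

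The tested genes outside the 10 whose course over the 6 libraries was closest to that of Ciita were Irf1, Zbp1, Sp100, Gbp3 and Prf1. Closeness is the mean absolute difference of log2(FPKM + 1), each gene centred on its own mean. It was 0.124 for Irf1, 0.131 for Zbp1, a sensor of nucleic acids, 0.135 for Sp100, a nuclear body protein, 0.145 for Gbp3, a guanylate-binding protein, and 0.151 for Prf1, the perforin of cytotoxic lymphocytes. Prf1 had 0.0301, 0.189 and 0.277 FPKM in the controls, against 4.34, 2.28 and 7.03 in the YKL-40-labelled libraries, close to Ciita in level as well as in course. Zbp1 and Prf1, like Ciita, reached the filter only through the YKL-40-labelled libraries. Closeness includes the difference between the groups, so it favours genes with a change near the 1.98 of Ciita. The changes ran from 1.84 for Sp100 to 2.22 for Zbp1.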

How the data were processed

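Bulk RNA was sequenced from 3 Control and 3 YKL-40 Overexpressing tumours, as grouped by the labels. The authors deposited 1 FPKM value per gene and library. Per the submitters' processing notes, bcl2fastq 2.0, HISAT2, StringTie, DESeq2 and limma were used with build mm10. Their roles, the annotation and the handling of shared reads are not given in the sources used here. Per the labels, the library kit was TruSeq RNA v2, which keeps no strand.

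Values were used as log2(FPKM + 1). Genes averaging 1 FPKM or more entered a fit by limma 3.58.1 (R 4.3.3) with a variance trend and no block, two-sided, and p-values were adjusted by Benjamini-Hochberg over all tested genes (threshold 0.05). The fit was also run on simulated data with planted changes and noise drawn independently for each gene. Genes in these data can vary together, so that run does not measure how reliable the calls here are. Ratios were tested by exact permutation over libraries. The depth estimate is the most common ratio of low values near 1, so a large depth difference could not show. FPKM files hold no counts, so no counting interval was given. Gene positions and promoters are from RefSeq (GRCm38.p6), and overlaps and shared stretches from GENCODE M21.

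The members, lists and ratios were chosen with earlier results of these data known. The rule was to name all members, the 3 tested genes of lowest p of each pathway list and 2 of each marker list, and a few fixed genes (Rfx5, Nlrc5, Irf1, Ifng, Cd4 and Lag3, among others). Some genes that the rule names are not reported here. The genes Rfxap, Rfxank, Creb1, Nfya, Nfyb, Nfyc, Dexi, Brd2, Flt3 and Zbtb46 are named besides, after their values were seen.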

Additional observations from a re-analysis of the deposited data

How the results depend on the processing

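The count of members called higher was 5 of 8. It was 5 with pseudocounts of 0.1 and 0.01, 5 of 6 at a filter of 5 FPKM, 5 with sum scaling, 4 with median of ratios scaling and 4 without a variance trend. It was 0 without a filter, 0 with the skeletal muscle covariate and 8 with array quality weights, and from 0 to 8 when 1 library was left out; the cause was not tested. With the replicate number as a block it was 7, with Ciita (adjusted p = 0.0423, limma) and H2-DMb2 (0.0463) added. Same-numbered samples did not deviate together (correlations of -0.08, -0.19 and 0.00), so the numbers were not taken as pairs. Over all genes, 49 were called, against 1 without a filter, 120 with the block, 1111 with array quality weights, 0 with the covariate, and 0 to 238 when 1 library was left out. Each member that a fit tested (8 in most, 6 at the filter of 5 FPKM, 10 without a filter) had a change above 0 in it. Of the ratios, the H2-O over H2-DM difference of 1.37 was -0.08 with a pseudocount of 0.1 FPKM and -0.92 with geometric means, without control 1 in the latter, and the chains over dendritic cell markers went from 2.08 to 1.25 with geometric means. Searching only the 250 bases before the start left 3 members with the long core and ATTGG in order. Depth limits H2-Oa, H2-Ob, H2-DMb2 and Ciita most, whose controls lie below 1 FPKM.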
